A study of Mus musculus with 4 samples.

Results

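The cells described here are 58 cells, sorted as T cells from pancreatic islets, that carried transcripts of natural killer (NK) cell receptors. They were taken from 3809 kept cells, which is 1.52% (exact 95% binomial interval 1.16 to 1.96%). A cell was kept when it had 500 or more detected genes and 10% or less of its unique molecular identifiers (UMIs, each standing for 1 captured transcript) from mitochondrial genes. A kept cell was a member when at least 2 of 8 genes, called rule genes below, had a UMI in it. These were Fcer1g, Ncr1, Klra1, Klra4, Klra5, Klra6, Klra7 and Klrb1c. The members were therefore chosen on measured values, and differences in the rule genes are a description of the choice.

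The islets came from NOD females that were not yet diabetic. This strain becomes diabetic spontaneously through autoimmunity. One group was 8 weeks old and the other 16 weeks old, both untreated as far as the labels say, and how many animals were pooled is not given in them. Live cells with surface T cell receptor (TCR) beta, stained with the antibody H57-597, were sorted and loaded on a droplet system that reads the 5′ end of transcripts. Each age had 1 mRNA library and 1 library of TCR chains from the same barcodes. Because each age is a single library, no difference below has a replicate check, and no p-value is given. Intervals cover counting error only.

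NK receptors fall into families that sit in the membrane of NK cells and of some T cells. The Klra genes encode Ly49 receptors, most of which bind class I MHC molecules and inhibit the cell, while a few activate it. Activating receptors such as Ncr1 (NKp46) have no signalling tail and pass their signal through adaptor proteins, among them the Fc receptor gamma chain encoded by Fcer1g and DAP12 encoded by Tyrobp. T cells that carry such receptors are often grouped as innate-like, a term that covers invariant NKT cells, CD8 alpha-alpha cells and others, and many of them respond to interleukin 15 and interleukin 18.

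The mRNA libraries held 2043 barcodes at 8 weeks and 2107 at 16 weeks, of which 1875 and 1934 were kept. Their median depths were 2975 and 2930 UMIs per kept cell. Both mRNA libraries contained 5 barcodes in common, and 0 of these were members. The members were compared with 761 kept cells that had a Cd8a or Cd8b1 UMI and none of the 8 rule genes, called the Cd8 reference (358 at 8 weeks and 403 at 16 weeks). A further 1499 cells with a Cd4 UMI, no Cd8 UMI and no rule gene, called the Cd4 class, served as a level for transcripts that these cells should mostly lack.

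Members made up 39 of 1875 kept cells at 8 weeks (2.08%, interval 1.48 to 2.83%) and 19 of 1934 at 16 weeks (0.982%, interval 0.592 to 1.53%). The share at 16 weeks was thus lower, and the intervals overlapped slightly. Fcer1g had a UMI in 29 members at 8 weeks and 14 at 16 weeks. Klra1 was detected in 26 and 15 members, and Klra4 in 27 and 12. Ncr1 was detected in 19 and 9, Klra6 in 18 and 8, and Klra5 in 15 and 3. Klra7 was found in 6 and 5 members, and Klrb1c, which encodes NK1.1 in strains that express it, in 5 and 0. Fcer1g and Ncr1 went together in 26 cells, and only 2 members had Ncr1 without Fcer1g.

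Every one of the 58 members had a UMI of at least 1 of the 5 Klra genes of the rule, and 44 had 2 or more of them. The Klra genes lie side by side on chromosome 6 in the mm10 build, from Klra5 at chr6:129898996-129917650 to Klra1 at chr6:130363917-130386874, both on the minus strand. They are close copies of each other, the cluster differs between mouse strains, and the reference genome is not that of NOD. Counts of one Klra gene may therefore hold reads of another, and the gene names within the family are uncertain.

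Outside the members a kept cell could hold at most 1 rule gene, so low shares of these genes there follow in part from the rule. Among 3751 other kept cells, Fcer1g and Klra1 each had a UMI in 8, which is 0.213%, and Ncr1, Klra6 and Klra7 had one in 0, which allows a share of up to 0.0800%. Just outside the threshold were 29 cells with exactly 1 rule gene, and just inside were 14 with exactly 2. At 8 weeks Cd7 was at 463 UMIs per 1000000 (CPM, the summed UMIs of a class per 1000000 of its UMIs) in the cells with 1 rule gene, 1234 CPM in those with 2 and 1758 CPM in those with 3. At 16 weeks it was at 288, 274 and 644 CPM in these cells, with no step up between 1 and 2 rule genes. Those 2 groups held 5 cells each at 16 weeks, too few to tell whether there is a step. With both libraries pooled, cells with 4 to 7 rule genes were between 604 and 1484 CPM, in no steady order, and the 3722 cells with none were at 141 CPM.

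The members differed widely in depth. They held between 1773 and 27325 UMIs, with a median of 5681, against a median of 3644 in the Cd8 reference. A Cd4, Cd8a or Cd8b1 UMI was present in 29 members, called coreceptor-detected, and absent from the other 29, called coreceptor-negative. Both kinds were found at each age, with 20 and 19 cells at 8 weeks and 9 and 10 at 16 weeks. The split was made after the values had been seen. Coreceptor-detected members had a median of 9595 UMIs, and 19 of 29 exceeded 8000. Coreceptor-negative members had a median of 3349 UMIs, and 1 of 29 exceeded 8000.

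**Figure D1:**
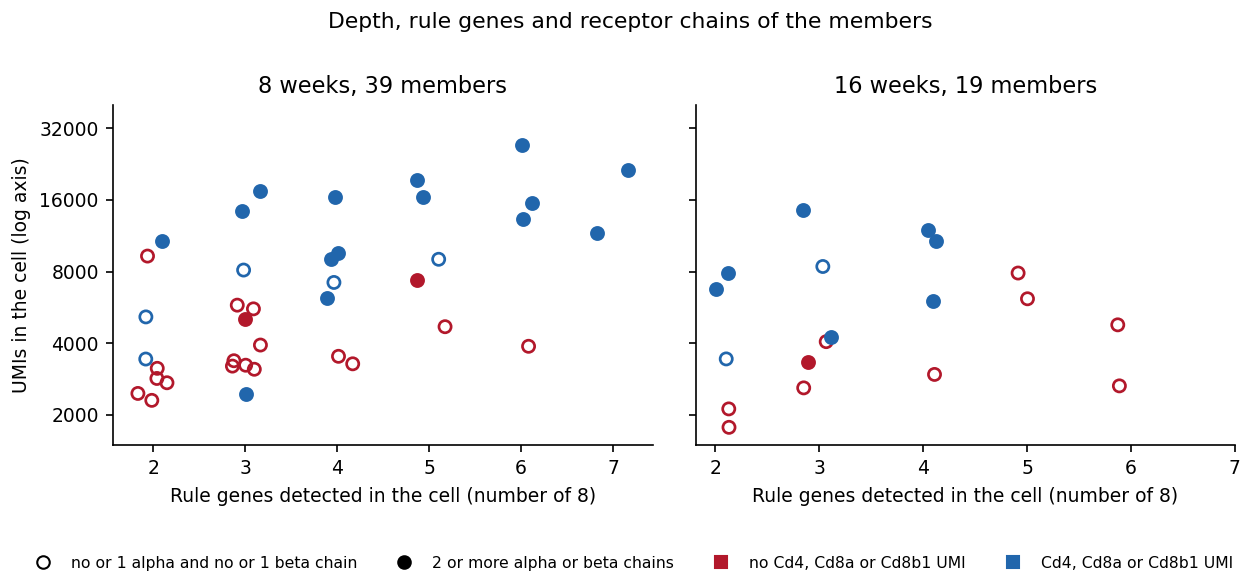
UMIs of each member (log axis) against how many of the 8 rule genes it expressed, at 8 weeks (left) and 16 weeks (right). Red points had no Cd4, Cd8a or Cd8b1 UMI and blue points had one, and filled points carried 2 or more productive alpha or beta chains. Of the 20 members over 8000 UMIs, 16 carried 2 or more chains of a kind.

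Depth, coreceptors and receptor chains moved together. Of the 29 coreceptor-detected members, 22 (75.9%) had 2 or more productive alpha or beta chains, compared with 3 of 29 coreceptor-negative members (10.3%) and 192 of 761 cells of the Cd8 reference (25.2%). All 10 members with both Cd4 and Cd8 UMIs had such extra chains, and their median depth was 15969 UMIs. Among members over 8000 UMIs, 80.0% had extra chains (interval 56.3 to 94.3%), against 54.9% of the 384 cells without a rule gene at that depth (interval 49.8 to 60%). Droplets with more than 1 cell would carry such a combination, and whether these members are single cells was not tested. Coreceptor-detected members contributed 318389 of the 435528 UMIs of all members, so sums over all members mostly follow them. Values for the 29 coreceptor-negative members are given beside many of the gene results, and results without them carry this limit.

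CD3, the signalling part of the TCR, was detected in nearly every member. Cd3g had a UMI in 58 of 58 members, Cd3e in 57 and Cd3d in 56. Cd3e stood at 1779 CPM in members at 8 weeks (interval 1637 to 1931) and 1690 CPM at 16 weeks (interval 1459 to 1949), beside 1987 and 1826 CPM in the Cd8 reference. In coreceptor-negative members Cd3e was at 1713 and 1305 CPM, a log2 ratio to the reference of -0.27 over both libraries (interval -0.49 to -0.06), while Cd3d and Cd3g had ratios of -0.01 and -0.04. The list of 13 counted TCR complex and coreceptor genes had a median log2 ratio of -0.12 over all members and -0.77 in the coreceptor-negative ones, and it holds Cd4, Cd8a and Cd8b1, on which these classes were split. With each cell thinned to 1500 UMIs, Cd3e was detected in 89.7% of members and 82.8% of coreceptor-negative members, against 93.0% of the reference, and before thinning in 98.3%, 96.6% and 99.5%. The 3 measured genes of the gamma-delta T cell list summed to 5 UMIs over all members and to 0 in the coreceptor-negative ones. TCR constant genes were not analysed here.

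The receptor libraries give a readout that the rule did not use. At least 1 productive beta chain was found for 44 of 58 members (75.9%, interval 62.8 to 86.1%) and 673 of 761 reference cells (88.4%, interval 85.9 to 90.6%). An alpha and a beta chain were found together in 69.0% of members and 76.2% of the reference. The coreceptor-negative members stood apart: 13 of 29 had no productive chain (44.8%, interval 26.4 to 64.3%), against 8.54% of the reference (interval 6.65 to 10.8%). Cells with neither coreceptor nor rule gene, which were shallower with a median of 2492 UMIs, lacked a chain in 16.3% (interval 14.4 to 18.3%). At 8 weeks 10 of 19 coreceptor-negative members had no chain (52.6%, interval 28.9 to 75.6%). At 16 weeks it was 3 of 10 (30%, interval 6.67 to 65.2%). The excess over the 16.4% and 16.1% of the other coreceptor-negative cells exceeded counting error at 8 weeks and did not at 16 weeks.

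**Figure D2:**
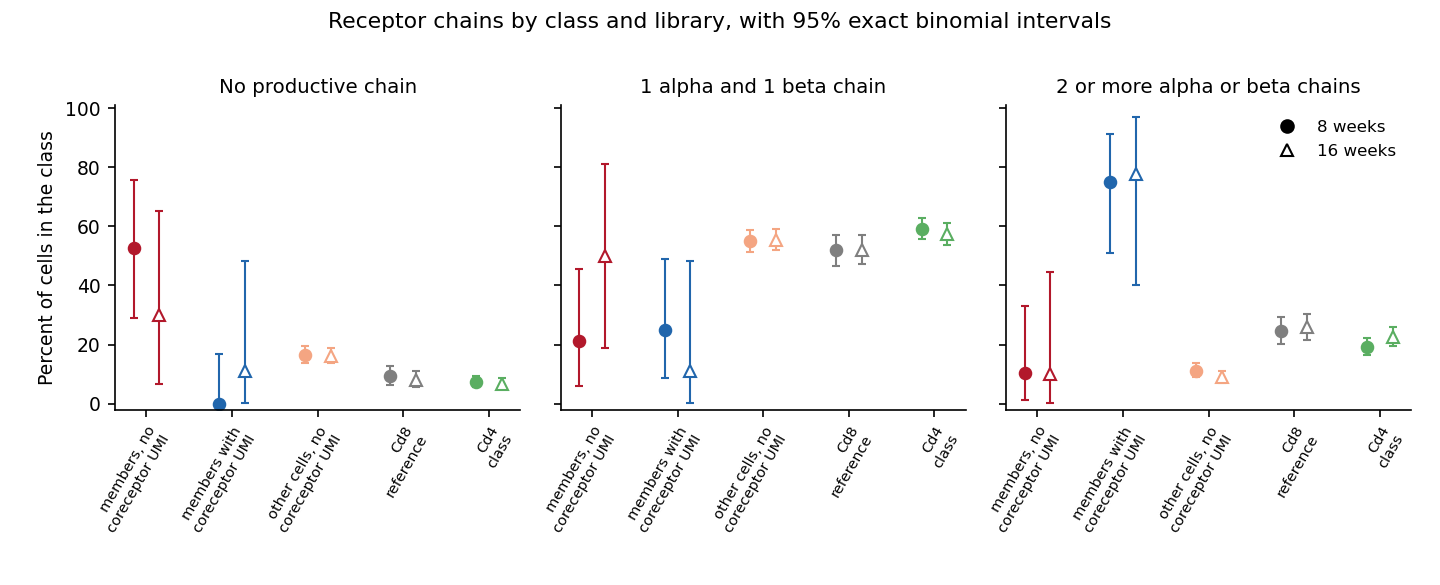
Percent of cells with no productive chain (left), exactly 1 alpha and 1 beta chain (middle) and 2 or more alpha or beta chains (right), by class; circles are the 8-week and triangles the 16-week library, with exact 95% binomial intervals. Members without a coreceptor UMI lacked a chain more often than the other classes at 8 weeks (52.6%), and members with a coreceptor UMI carried extra chains in 15 of 20 cells at 8 weeks and 7 of 9 at 16 weeks.

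The alpha and beta V segments of the members were varied. The leading alpha chains of 40 members used 24 different V segments, and the leading beta chains of 44 members used 18. The leading chain is the one with the most UMIs. In the 25 members with 2 or more alpha or beta chains, it need not stand for the cell that carried the rule genes. TRBV13-2 was the most frequent beta segment, in 6 of 44 members (13.6%) and 94 of 673 reference cells (14.0%). TRBV29 occurred in 5 of 44 members (11.4%, interval 3.79 to 24.6%), against 4.31% of the reference (interval 2.90 to 6.13%). In the Cd4 class it occurred in 29 of 1332 cells (2.18%, interval 1.46 to 3.11%). Segments are named here because 5 or more members carried them. The contrast for TRBV29 thus rests on 5 cells that also led to its choice, and it was not tested. TRBV16 and TRBV15 were also used by 5 members each, beside 6.84% and 5.20% of the reference. The intervals of all 4 segments overlapped between members and the Cd8 reference. Of the 16 coreceptor-negative members with a beta chain, 4 used TRBV13-2 and 2 used each of the other 3 segments. The beta CDR3, the loop made at the junction of V, D and J segments, had a median length of 42 bases in members and in the reference.

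Invariant NKT cells are defined by an alpha chain that joins TRAV11 to TRAJ18. This pair was found in 1 of the 40 members with an alpha chain (2.50%, interval 0.0633 to 13.2%), in 2 of 603 such reference cells and in 11 of 2914 such kept cells. The alpha chain of mucosal-associated invariant T cells, TRAV1 with TRAJ33, was found in 0 of these 40 members, which allows a share of up to 7.5%. An alpha chain joining TRAV3-1 to TRAJ50 occurred in 2 of 12 coreceptor-negative members with an alpha chain (interval 2.09 to 48.4%), and in 0 of 603 reference and 0 of 1237 Cd4 class cells. It was singled out after the values had been seen. The junctions of these members are shown because they tell repeated V and J use apart from shared clones. M20 and M37 are the members with the repeated pair, both coreceptor-negative and from 8 weeks. M49, from 16 weeks, is coreceptor-negative and had 6 rule genes. Among the 15 members with exactly 1 alpha and 1 beta chain, M14 is the only one that shared both with other cells. M22 carries the invariant NKT pair. The CDR3 is written 5′ to 3′ as deposited, and capitals mark bases that match neither the germline V nor the germline J segment of the reference genome, which is not that of NOD. D segments were not compared, so capitals in a beta chain may include germline D bases.
M20 alpha, TRAV3-1 and TRAJ50: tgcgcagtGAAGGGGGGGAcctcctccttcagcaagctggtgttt
M37 alpha, TRAV3-1 and TRAJ50: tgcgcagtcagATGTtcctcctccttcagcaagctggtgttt
M20 beta, TRBV16 and TRBJ2-7: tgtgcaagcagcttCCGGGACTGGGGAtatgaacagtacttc
M37 beta, TRBV13-2 and TRBJ1-3: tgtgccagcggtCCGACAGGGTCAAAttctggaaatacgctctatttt
M49 alpha, TRAV3-3 and TRAJ26: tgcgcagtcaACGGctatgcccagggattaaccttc
M49 beta, TRBV16 and TRBJ2-7: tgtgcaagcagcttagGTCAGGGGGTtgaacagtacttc
M14 alpha, TRAV13D-2 and TRAJ53: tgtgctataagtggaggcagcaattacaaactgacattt
M14 beta, TRBV15 and TRBJ2-5: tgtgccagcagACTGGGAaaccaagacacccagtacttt
M22 alpha, TRAV11 and TRAJ18: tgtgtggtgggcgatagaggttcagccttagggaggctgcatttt
M22 beta, TRBV29 and TRBJ2-7: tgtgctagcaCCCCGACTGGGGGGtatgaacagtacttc

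M20 and M37 shared their alpha segments, but their alpha junctions differed in length, 45 against 42 bases, and they used different beta V segments. They were thus not 1 clone. The alpha junctions of M14 and M22 held 0 bases that matched neither V nor J, and those of M20, M37 and M49 held 4 to 11. In the beta junctions, where such bases include the D segment, the 5 members had 7 to 14.

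Clones by both chains could be read only in members with exactly 1 alpha and 1 beta chain. Of 15 members with exactly 1 alpha and 1 beta chain, 1 shared both with other cells of its library (6.67%, interval 0.169 to 31.9%), beside 34 of 396 reference cells (8.59%) and 133 of 875 Cd4 class cells (15.2%). That member was M14, a coreceptor-detected cell with Cd4 UMIs, in a clone of 5 cells. By the beta chain alone, 6 of the 28 coreceptor-detected members with a beta chain shared it with 1 to 12 other cells, none of them members. All 6 were from 8 weeks. Over all members this was 6 of 44 (13.6%, interval 5.17 to 27.4%), beside 13.8% of the reference and 19.4% of the Cd4 class. Of the 16 coreceptor-negative members with a beta chain 0 shared it with another cell (exact upper limit 20.6%), beside 7.64% of the other coreceptor-negative cells, so a difference was not detectable at this number of cells. None of the 44 leading beta chains was present in the library of the other age (0 of 44).

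Across genes, 8200 had 30 or more UMIs over members and reference, outside the rule genes and TCR segments. Of these, 150 (1.83%) were at least 2-fold higher in members in both libraries, and 86 (1.05%) were at least 2-fold lower in both. With a pseudocount of 1 UMI in place of 0.5, 23 genes were lower. These counts are descriptions, since the same cells set the rule, and the median log2 ratio over all 8200 genes was 0.04. A gene with under 30 UMIs in the reference entered only with the UMIs of the members, which favours genes that are high in them. With the 29 coreceptor-negative members alone 527 (6.56%) and 139 (1.73%) of 8038 genes passed, from fewer UMIs, and 87 of the 150 higher genes were among the 527. Of the 86 lower genes 17 were among the 139.

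NK receptors outside the rule were higher in members than in the Cd8 reference as a group. Of 32 listed genes 29 were measured and 13 had enough UMIs, and of these 4 were 2-fold higher in both libraries and 0 were lower. Their median log2 ratio was 1.05 over all members and 1.43 in the coreceptor-negative ones. Klrk1 encodes NKG2D, an activating receptor for stress ligands. It was at 139 CPM in members at 8 weeks (interval 101.6 to 186) and 125 CPM at 16 weeks (interval 68.1 to 209), against 24.2 and 27.1 CPM in the reference. This is a log2 ratio of 2.40 (interval 1.92 to 2.87), with the member intervals above the reference at both ages. The coreceptor-negative members reached 256 CPM, and the Cd4 class 1.25 CPM. At 1500 UMIs per cell Klrk1 was detected in 20.7% of members, 2.67% of the reference and 0.138% of the Cd4 class, and unthinned in 39.7%, 7.62% and 0.467%.

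Cd7, a surface glycoprotein of T and NK cells, had the most UMIs of this group, 514 in 54 of 58 members. It was at 1291 CPM in members at 8 weeks and 863 CPM at 16 weeks, against 384 and 290 CPM in the reference. The log2 ratio was 1.82 (interval 1.67 to 1.96), and 2.52 in coreceptor-negative members. It was between 1.22 and 3.07 under the same 18 alternative settings. Thinned to 1500 UMIs, 67.2% of members, 28.1% of the reference and 8.80% of the Cd4 class had a Cd7 UMI, and unthinned 93.1%, 46.8% and 18.2%. Cd160, a receptor for class I and HVEM ligands, was at 210 and 89.0 CPM in members at 8 and 16 weeks beside 59.1 and 41.1 CPM, with 317 and 183 CPM in coreceptor-negative members. Klre1, an NK receptor of the lectin family, was at 61.9 and 62.3 CPM beside 20.8 and 29.3 CPM, and its log2 ratio was 1.52 in coreceptor-negative members (interval 0.19 to 2.47). Klrd1 and Klrc1, which encode the CD94 and NKG2A chains of an inhibitory receptor, had log2 ratios of 1.09 and 1.03, below 2-fold in 1 library each, and 1.87 and 1.66 in coreceptor-negative members.

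Several receptor genes were too rare to be counted among the 8200 and had few or no UMIs in the reference. Tyrobp, the adaptor DAP12, had 29 UMIs in 13 members and 0 in the 761 reference cells. Against the 3-count limit of the whole reference it was at least 95-fold higher, and the 2 libraries gave 68.1 CPM (8 weeks) and 62.3 CPM (16 weeks). Of these UMIs 15 came from 7 coreceptor-negative members. The 29 cells with exactly 1 rule gene are in neither class, and in these Tyrobp was at 227 CPM, from 2 cells. In the 14 members with exactly 2 rule genes it was at 0. Klra9, a further Ly49 gene, had 16 UMIs in 10 members and 0 in the reference, at least 52.4-fold higher. Klrb1a had 17 UMIs in 13 members and 3 UMIs in the reference, a log2 ratio of 5.62 (interval 4.01 to 8.21). For the Klra and Klrb1 families the choice of the rule genes and reads shared between copies bear on these values.

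**Figure D3:**
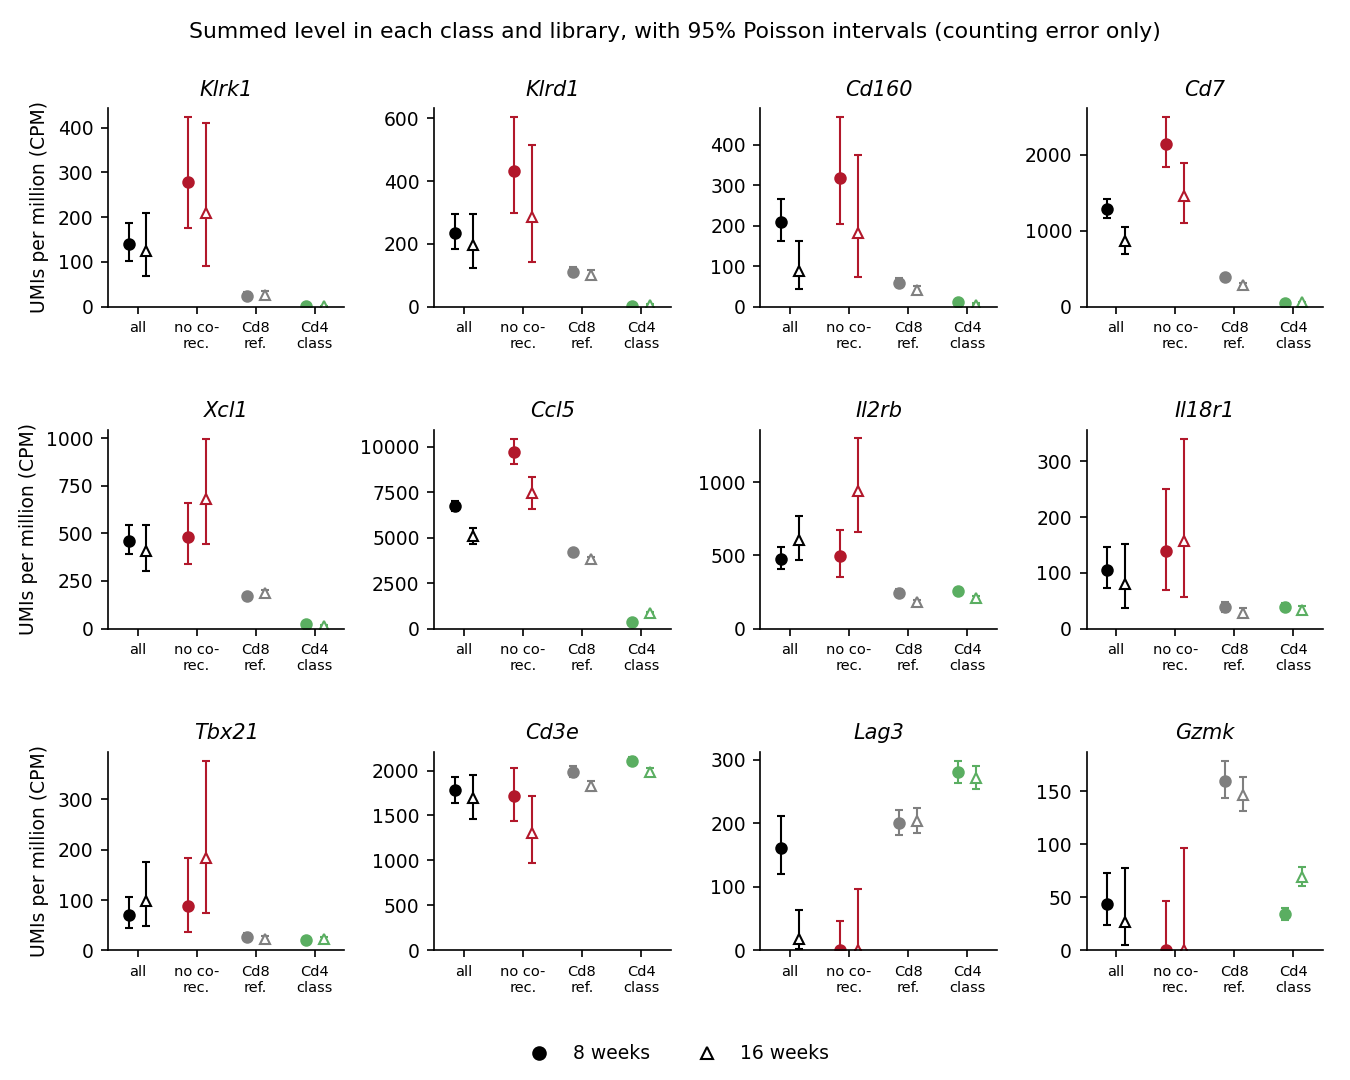
Summed level in CPM of 12 genes in all members (all), coreceptor-negative members (no co-rec.), the Cd8 reference (Cd8 ref.) and the Cd4 class. Circles are 8 weeks and triangles 16 weeks, with exact 95% Poisson intervals. Klrk1, Cd7, Xcl1 and Il2rb were higher in members than in the reference in both libraries, Cd3e in coreceptor-negative members was at 1713 and 1305 CPM beside 1987 and 1826 CPM in the reference, and Lag3 and Gzmk were at 0 in coreceptor-negative members.

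The interleukin 18 receptor was higher in members than in the Cd8 reference. Of 13 counted cytokine receptor genes, its chains Il18r1 and Il18rap passed 2-fold in both libraries, and 0 were lower. The list's median log2 ratio was 0.16, and 0.80 in coreceptor-negative members. Il18r1 was at 105 and 80.1 CPM in members at 8 and 16 weeks, against 38.3 and 28.4 CPM in the reference. Il18rap was at 58.8 and 62.3 CPM, against 15.03 and 9.48 CPM, and its log2 ratio was between 1.56 and 4.42 under the 18 alternative settings. In coreceptor-negative members their log2 ratios were 2.17 (interval 1.31 to 2.86) and 3.33 (interval 2.33 to 4.17). Il2rb, a chain of the receptors for interleukins 2 and 15, was at 477 and 605 CPM against 245 and 178 CPM, a log2 ratio of 0.96 at 8 weeks and 1.77 at 16 weeks, and 1.61 over both in coreceptor-negative members. At 1500 UMIs it was detected in 51.7% of members, 20.7% of the reference and 22.4% of the Cd4 class, and unthinned in 91.4%, 47.0% and 42.9%. Il7r, the interleukin 7 receptor, had a log2 ratio of 0.76 (interval 0.44 to 1.05).

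Chemokines were mixed. Xcl1, the chemokine that attracts cross-presenting dendritic cells, was the 1 of 10 counted genes of its list to pass 2-fold in both libraries. It was at 461 CPM in members at 8 weeks (interval 390 to 541) and 409 CPM at 16 weeks (interval 299.6 to 546), against 168 and 186 CPM in the reference, with 482 and 678 CPM in coreceptor-negative members. It was detected in 29.3% of members, 7.75% of the reference and 1.31% of the Cd4 class at 1500 UMIs, and in 70.7%, 15.1% and 3.07% unthinned. Ccl5 was at 6750 and 5080 CPM against 4211 and 3847 CPM, a log2 ratio of 0.65 (interval 0.59 to 0.71), and 1.16 in coreceptor-negative members. By cells, 87.9% of thinned members had a Ccl5 UMI, against 30.5% of the reference and 8.67% of the Cd4 class (unthinned 91.4%, 35.7% and 11.8%). With the reference restricted to cells with a Ccl5 UMI, 64 of 6784 genes (0.943%) were 2-fold higher in members in both libraries in place of 150. Unless stated, ratios and list medians in this text are against the whole reference, in which most cells had no Ccl5 UMI.

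Among transcription factors of innate lymphocytes, 13 were counted, 2 were 2-fold higher in both libraries and 0 were lower. The list's median log2 ratio was -0.05, and -0.09 in coreceptor-negative members. Tbx21 (T-bet) was at 71.2 CPM in members at 8 weeks and 97.9 CPM at 16 weeks, against 26.7 and 22.1 CPM in the reference, and its log2 ratio was 2.34 in coreceptor-negative members (interval 1.38 to 3.11). Id2, an inhibitor of E proteins, was at 201 and 196 CPM against 95.5 and 88.4 CPM. At 16 weeks 40.9% of its 22 UMIs came from 1 cell, and coreceptor-negative members were at 241 and 209 CPM. Eomes, the factor related to T-bet, had a log2 ratio of -1.10 (interval -2.03 to -0.38) from 14 UMIs in members. Zbtb16 (PLZF), the factor of NKT cells, was detected in 5 members with 6 UMIs. The only coreceptor-detected member among these 5 had 1 UMI. The log2 ratio of Zbtb16, 3.30 (interval 1.39 to 5.20), rests on 6 UMIs in the reference.

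Killing genes did not move as 1 group. Of 13 counted cytotoxic genes, Serpinb9, a granzyme B inhibitor, was 2-fold higher in both libraries and Gzmk was lower. The list's median log2 ratio was 0.53, and 0.84 in coreceptor-negative members. Gzmk, a granzyme of memory-like CD8 T cells, was at 43.3 and 26.7 CPM in members at 8 and 16 weeks, against 160 and 147 CPM in the reference. All of its 17 UMIs came from 5 coreceptor-detected cells, and coreceptor-negative members had 0, at least 5.98-fold lower than the reference. Ctsw, a cathepsin of killer lymphocytes, had a UMI in 58 of 58 members, at 854 and 650 CPM against 506 and 353 CPM. Nkg7, a granule membrane protein, had a log2 ratio of -0.29 at 8 weeks and 0.27 at 16 weeks. It was at 825 and 1852 CPM in coreceptor-negative members, beside 969 and 1201 CPM in all members.

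Genes of naive T cells were lower in part. Of 14 counted, 3 were 2-fold lower in both libraries and 0 higher, with a median log2 ratio of 0.01. The lower genes were Ccr7, the lymph node homing receptor, at 58.8 and 80.1 CPM against 184 and 224 CPM, Dapl1 with a log2 ratio of -2.09, and Igfbp4 with -1.36. In coreceptor-negative members these ratios were -2.42 (interval -4.46 to -1.22), -1.11 (interval -3.16 to 0.09) and -0.74 (interval -1.63 to -0.06). Of 16 counted inhibitory and activation genes 0 were higher in both libraries and 1 was lower. That was Havcr2 (Tim-3), with 0 UMIs in members, at least 1.59-fold lower over both libraries. Its counting interval reached up to 0.83 at 8 weeks and 1.27 at 16 weeks, and after thinning its log2 ratio was 1.17. The list's median log2 ratio was -0.49 over all members and -1.63 in the coreceptor-negative ones. Lag3, an inhibitory receptor, had 54 UMIs in members, all in 11 coreceptor-detected cells. In coreceptor-negative members it had 0 UMIs and was at least 7.91-fold lower than in the reference. Pdcd1 (PD-1) had 2 UMIs in the coreceptor-negative members, a log2 ratio of -2.74 (interval -6.11 to -1.20) against the reference.

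Outside the lists, the genes highest in members in both libraries included Emid1, an extracellular matrix protein, Prkd3, a protein kinase D, and Srgap3, a GTPase-activating protein. Emid1 had 19 UMIs in 12 members, at 40.2 and 53.4 CPM against 4.85 and 4.06 CPM, a log2 ratio of 3.30 (interval 2.30 to 4.29). Prkd3 had 26 UMIs in 18 members and a log2 ratio of 3.0 (interval 2.19 to 3.79). Srgap3 had 14 UMIs in 13 members and 2.73 (interval 1.62 to 3.76). Tanc1, Nebl, Chn2, Prrt1, Atp1b1 and Anxa1 had log2 ratios between 1.63 and 2.35. Anxa1, a phospholipid-binding protein that limits inflammation, was at 58.8 and 80.1 CPM against 19.9 and 6.32 CPM. Fbxl15, Vipr1 and Nup133 had 7 to 9 UMIs, and with both libraries pooled the counting intervals of Fbxl15 and Nup133 included 0. Among the 10 lowest genes, Cd8a is low because the reference was chosen on it. Ctrb1 and Cela1, pancreatic digestive enzymes, had 0 UMIs in members and were at least 3.83-fold and 1.90-fold lower, but had ratios of 0.65 and 0.073 when 1 rule gene was enough for a member. Ybx3, Paxip1, Atg13, Mybl2 and Scyl2 each had 1 UMI in members, so that their log2 ratios between -2.62 and -2.11 have wide intervals, that of Ybx3 being -8.51 to -0.68, and that of Mybl2 turned to 0.81 after thinning. In coreceptor-negative members the ratios of Emid1, Prkd3 and Anxa1 were 3.99, 3.56 and 3.04.

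**Figure D4:**
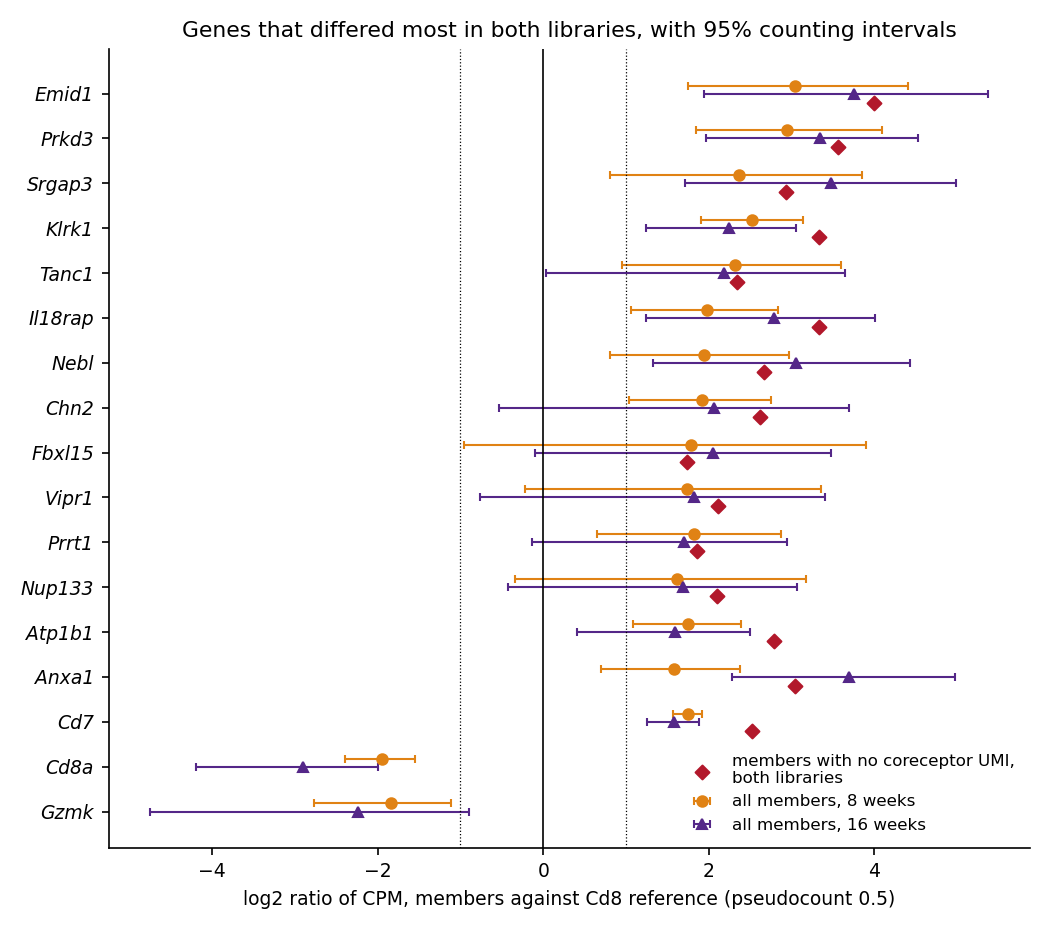
The log2 ratio of CPM in members against the Cd8 reference for the genes ranked highest and lowest in both libraries that had more than 3 UMIs in members. Circles are 8 weeks and triangles 16 weeks with 95% counting intervals, and diamonds are coreceptor-negative members with both libraries pooled, shown where they had a UMI. Dotted lines mark 2-fold. The 15 genes on the right were ranked by the ratio nearer 0 of the 2 libraries, so their place past that line at each age follows from the ranking. The intervals of Fbxl15, Vipr1 and Nup133 included 0 at each age, and those of Chn2 and Prrt1 at 16 weeks.

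Defining markers of mast cells, myeloid cells and B cells were at or near 0 in members, while genes of the NK cell list were not. Of the mast cell and basophil list 0 of 6 genes had a UMI, and the myeloid genes Lyz2, Csf1r, Fcgr1 and C1qa had 0, while Cst3, which T cells also express, had 96 of the 98 UMIs of that list. The summed level of the myeloid list in members was 238 CPM (8 weeks) and 187 CPM (16 weeks), beside 218 and 219 CPM in the reference. B cell genes summed to 24.8 and 17.8 CPM in members and 49.0 and 83.5 CPM in the reference, with Cd79a and Ms4a1 among those at 0. Islet endocrine genes summed to 3 UMIs and acinar genes to 7. Of 11 measured NK cell genes 10 had a UMI, at 508 and 463 CPM in members and 468 and 417 CPM in the reference, where 7 of 11 had one. In coreceptor-negative members 10 of 11 had a UMI, at 584 and 652 CPM. Cd27, which T cells also express, had 103 of the 216 UMIs of this list in members, Tyrobp 29 and Prf1 (perforin) 19, while Itga2 (CD49b) had 1 and Cma1 0. Of the group 2 innate lymphoid list 2 of 6 genes had a UMI, at 108 and 62.3 CPM in members and 59.1 and 74.9 CPM in the reference. These were Gata3, which T cells also express, with 28 UMIs and Areg with 14 in 2 members, while Il1rl1, Il13, Il5 and Arg1 were at 0. Coreceptor-negative members had 5 UMIs of this list, all of Gata3. NK cells carry no rearranged TCR, and 14 of 58 members had no productive chain, though Cd3g was detected in all of these. The part of NK cells in the results was not tested.

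Between the ages, 1890 genes had 30 or more UMIs in members. At 16 weeks 29 (1.53%) were at least 2-fold higher than at 8 weeks and 90 (4.76%) were at least 2-fold lower. With coreceptor-negative members alone, 23 (4.87%) and 10 (2.12%) of 472 genes passed. The age difference also goes with depth, since members had a median of 5783 UMIs at 8 weeks and 4780 at 16 weeks, and 41.0% and 21.1% exceeded 8000 UMIs. Age, library and depth cannot be told apart.

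Cd28 was among the genes higher at 16 weeks. Cd28, the costimulatory receptor, rested on 22 UMIs in 14 members at 8 weeks and 24 UMIs in 11 members at 16 weeks. These were 68.1 and 214 CPM, a log2 ratio of 1.65 (interval 0.75 to 2.55). In coreceptor-negative members Cd28 had 2 and 5 UMIs, a log2 ratio of 2.18 (interval -0.25 to 5.75). Klf3, Ccni, Rsbn1l, Utrn, Add1 and Myo1f had log2 ratios between 1.28 and 1.61, and between -0.50 and 0.40 in the reference.

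The genes lower at 16 weeks included Bcl7c, Lag3, Rbpj, Gna13, Mmd, Rgs16 and S100a4. Bcl7c, a chromatin remodelling subunit, had 32 UMIs in 16 members at 8 weeks and 0 at 16 weeks. Rgs16, a regulator of G protein signalling, had 60 UMIs at 8 weeks and 4 at 16 weeks, a log2 ratio of -2.23 (interval -4.31 to -0.95). Coreceptor-negative members held 7 and 2 of these UMIs, a log2 ratio of -0.54 (interval -4.07 to 1.63). S100a4, a calcium-binding protein of effector cells, had 59 and 5 UMIs, a log2 ratio of -1.91, and it was also lower in the reference at -1.38. In coreceptor-negative members its log2 ratio was -1.39 (interval -4.85 to 0.48). Mmd, with 34 and 2 UMIs, turned to 2.64 after thinning. Lag3 had 52 UMIs at 8 weeks in 9 members and 2 at 16 weeks, a log2 ratio of -2.87 (interval -6.26 to -1.25). This ratio, like that of Mmd, turned above 0 after thinning. All of the Lag3 UMIs came from coreceptor-detected cells, and the coreceptor-negative members had 0 in both libraries. Of the 7 counted NK receptor genes outside the rule 0 were higher and 1 was lower at 16 weeks. That gene was Cd160, at 210 and 89.0 CPM. The list's median log2 ratio was -0.16, beside -0.04 over all 1890 genes.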

How the data were processed

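The files deposited by the authors hold unnormalized UMI counts for each gene in each barcode, and TCR contigs with their annotation. The build mm10 and the tool Seurat are named, with no role, in the submitters' processing notes, and the aligner is not given in the sources used here. The matrix headers name software version 3.0.1. Counts were summed per class and library and scaled to 1000000 (CPM), with exact Poisson intervals. Log2 ratios used a pseudocount of 0.5 and exact conditional binomial intervals, and shares used Clopper-Pearson intervals, all at 95% and for counting error only. Computation used Python 3.11.15, numpy 2.4.6, pandas 2.3.3 and scipy 1.17.1, tested on simulated data. No doublet caller was run, and cells with several receptor chains were counted instead. With 1 library per age no test was made. An exact test over 2 pairs of libraries cannot go below p = 0.5. The CDR3 of a chain was compared with GENCODE M21 germline segments, and gene positions come from the same annotation (mm10).

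Genes named were those of 20 fixed lists (262 genes outside the rule, 241 of them found by symbol), and, outside them, the 15 highest and 10 lowest in members by the log2 ratio nearer 0 of the 2 libraries. These needed one sign in both, 30 UMIs, UMIs in at least 3 cells of the higher class in each library and no cell with over 33.3% of that class's UMIs. Between ages the 8 highest and 8 lowest were taken with 30 UMIs and 5 cells, and V segments were named from 5 members. Some genes that met these rules are not reported here. The members and lists were chosen with earlier results of these data known. The split by coreceptor and the count of genes in members with at most 1 alpha and 1 beta chain were added after the values were seen.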

Additional observations from a re-analysis of the deposited data

Results flagged for a closer look

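Of the counted list genes, 4 went opposite ways in the 2 libraries with counting intervals clear of 0 in both. The same count was not made over all counted genes, so whether 4 is more than the background cannot be told. The differences between ages were not tested. Ccl4, a chemokine, had a log2 ratio of members to the Cd8 reference of 0.87 at 8 weeks and -1.48 at 16 weeks. Of its 171 UMIs in members at 8 weeks 35.7% came from 1 cell, and of its 22 UMIs at 16 weeks 95.5%. The coreceptor-negative members alone had log2 ratios of -0.66, with a counting interval up to 0.05, and -3.83, so the 8-week direction turned. Nkg7 had -0.29 at 8 weeks and 0.27 at 16 weeks. The heat shock gene Hspa1b had 0.26 and -0.38, and Zfp36, which promotes decay of cytokine transcripts, had 0.31 and -0.55.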

How the results depend on the processing

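No paired analysis was possible because each age has 1 library and no result comes from a test. The gate gave 37 members after thinning to 1500 UMIs, 33 with at most 1 alpha and 1 beta chain, 29 without a coreceptor UMI, and 19 to 39 with 1 library left out. Genes 2-fold higher in both libraries numbered 64 with a Ccl5 UMI in the reference, 403 against all kept cells without a rule gene, 236 with equal weight per cell, 371 from 10 UMIs, 2733 with no filter on low counts, 429 with at most 1 alpha and 1 beta, 527 without a coreceptor UMI, and 192 to 605 with 1 library left out. Genes 2-fold lower numbered 192 with equal weight, 23 with a pseudocount of 1, 134 and 139 with those last 2 choices of members, and 282 to 603 with 1 library left out, where 1 library alone had to pass. Between ages, genes higher numbered 4 after thinning and 51 with equal weight, and genes lower 7 after thinning, 37 without cells with 2 or more beta chains, 9 with at most 1 alpha and 1 beta and 10 without a coreceptor UMI. Paired chains fell to 41.4% without a coreceptor UMI. Extra chains fell to 19.5% without cells with 2 or more beta chains and 10.3% without a coreceptor UMI. The clone share was 0% after thinning and without a coreceptor UMI, and 0 to 11.1% with 1 library left out. Of 25 genes named across both libraries, 21 kept their sign under all 18 alternatives. These genes were chosen for one sign in both libraries, so the alternatives that left 1 library out could not change it. Reversed were Ctrb1 (0.65) and Cela1 (0.073) with 1 rule gene or more, with the acinar list (0.65), and Havcr2 (1.17) and Mybl2 (0.81) after thinning. The myeloid list reached 0.46 with 1 rule gene or more and 0.15 with no filter. Lag3 between ages was 1.06 after thinning and 1.04 without a coreceptor UMI (where both libraries had 0 UMIs), and Mmd was 2.64 after thinning. The cause of the other changes was not tested. The 58 members summed to 435528 UMIs, 117139 of them in the coreceptor-negative members, and this depth limits every ratio of a rare gene.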
